A study of Mus musculus with 2 samples.

Results

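The colony-stimulating factors and their receptors comprise 8 genes, 3 ligands and 5 receptor chains, among the 37451 genes with deposited values. They were taken by gene symbol and not by their values, and each of the 8 symbols had 1 gene. The data are a control RNA-Seq for a map of TTP binding to RNA, with 1 library of WT and 1 library of ΔM bone marrow-derived macrophages (BMDMs), both from 7- to 9-week-old C57BL/6 littermates. ΔM mice (TTP fl/fl LysMCre) delete *Zfp36*, the gene of the mRNA-destabilizing protein tristetraprolin (TTP), through a Cre recombinase expressed in myeloid cells from the lysozyme M locus. Whether marrow of several animals was pooled is not given in the sources used here. Both cultures were grown with CSF-1 from L929 cells and received 100 μM 4-thiouridine for 16 h, followed by LPS at 10 ng/ml for 6 h as the protocol gives it. The sample titles end in LPS7, and what the 7 marks is not given in the sources used here. Values are FPKM (fragments per kilobase of transcript, relative to all mapped fragments), a scale on which genes of different length can be compared. With 1 library per genotype no difference has a replicate check, and no p-value was calculated.

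CSF-1, also named M-CSF, binds the receptor tyrosine kinase CSF1R, on which macrophages depend for survival and proliferation. GM-CSF (gene *Csf2*) binds a receptor of a specific α chain (*Csf2ra*) and the common β chain (*Csf2rb*), which IL-3 and IL-5 receptors use as well. Mice carry another β chain, *Csf2rb2*, which serves IL-3. G-CSF (*Csf3*) acts on a homodimer of *Csf3r* and is known for the production of neutrophils. LPS-stimulated cells make GM-CSF and G-CSF transiently, and the mRNAs of these are known for AU-rich elements in the 3′ UTR, the sequences to which TTP binds.

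The genotype labels were checked first. *Zfp36* had 65.26 FPKM in WT against 16.71 in ΔM (log2 ratio -1.90). The values of low genes corresponded to about 36600000 fragments in WT and 33000000 in ΔM. From these estimates each FPKM was given a 95% interval, which covers counting error only. All 7 macrophage markers exceeded 1 FPKM in both libraries. Their sum was 3896.86 FPKM in WT and 2744.74 in ΔM, of which *Lyz2*, the lysozyme M gene, contributed 2480.86 and 1356.26 FPKM. Of the others, *Cd14* (116.9 and 109.75 FPKM), *Emr1* (379.89 and 357.09) and *Itgam* (223.19 and 199.87) were lower in ΔM. *Cd68* (387.55 and 389.58 FPKM), *Fcgr1* (306.32 and 328.71) and *Mertk* (2.15 and 3.48) were higher in ΔM. Each marker listed for T cells, B cells, dendritic cells, mast cells or basophils and fibroblasts stayed under 1 FPKM in both libraries. In RNA of whole cultures, fewer cells of a type and less RNA per cell cannot be told apart. The Cre recombinase of ΔM is expressed from the lysozyme M locus, and its part in the *Lyz2* values was not tested.

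*Csf1* was the most abundant ligand and the gene with the largest absolute log2 ratio of the 7 that reached a mean of 1 FPKM. It is located at chr3:107543966-107563387 (mm9) on the minus strand. Its level was 12.63 FPKM in WT (counting interval 11.8 to 13.5) and 9.17 FPKM in ΔM (8.42 to 9.95). The intervals did not overlap, with ΔM the lower library, at 0.726 times the WT level. On the log2(FPKM + 1) scale, on which all further log2 ratios are given, the ratio of ΔM to WT was -0.42 (-0.56 to -0.28). Among the 8078 protein-coding genes that averaged 1 FPKM or more over both libraries, 9.89% had a lower ratio. Over both libraries the genes nearest to *Csf1* in level were *Kdm5a* (12.36 and 9.06 FPKM), *Mrpl9* (12.76 and 9.41 FPKM) and *Entpd1* (12.53 and 8.91 FPKM).

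*Csf3* was low and alike in both libraries. This gene, at chr11:98562577-98564943 on the plus strand, had 2.33 FPKM in WT (1.91 to 2.83) and 2.28 FPKM in ΔM (1.83 to 2.80), from about 104 and 91 fragments. The log2 ratio was -0.02, and its interval of -0.31 to 0.27 holds 0 and leaves differences of that size undetectable at this depth. *Csf2*, at chr11:54060773-54063169 on the minus strand, was at 0.04 FPKM in WT, which corresponds to about 1 fragment, and was listed at 0 in ΔM. For a transcript of 800 nt, 3 fragments would give 0.135 FPKM in WT and 0.152 FPKM in ΔM, so both values lie under what this depth resolves. No ratio was read from *Csf2*. An antisense gene, *Gm12223*, overlaps 96 nt of its exons and was listed at 0 in both libraries.

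The 3′ UTRs of the ligands are shown because AU-rich pentamers are the known feature of TTP-bound mRNAs. ATTTA pentamers are in capitals, in DNA letters of the transcript strand, read from the mm9 genome. The *Csf2* stretch (chr11:54060822-54060851, exon 4 of 4) and the *Csf1* stretch (chr3:107544014-107544043, exon 9 of 9) are the 30 bases with the most pentamers in each 3′ UTR. The *Csf3* stretch (chr11:98564303-98564327, exon 5 of 5) spans the positions at which PAR-iCLIP, a crosslinking map of TTP on RNA, placed TTP in this 3′ UTR. For *Csf1* and *Csf2* no TTP position was read from this map.
Csf2: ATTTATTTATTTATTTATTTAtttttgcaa
Csf3: tttATTTAtctctATTTAatATTTA
Csf1: ATTTAaatatctATTTAaaaaataggaagc

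The *Csf2* stretch held 5 overlapping pentamers in an unbroken run, whereas 3 pentamers were spaced through the *Csf3* stretch and 2 through that of *Csf1*. *Csf2*, with the densest run, was at 0.04 and 0 FPKM, under what this depth resolves. *Csf3*, with listed TTP positions in its 3′ UTR, had a log2 ratio of -0.02 (-0.31 to 0.27), and *Csf1* one of -0.42. A relation of these motifs to levels or ratios was not tested.

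**Figure D1:**
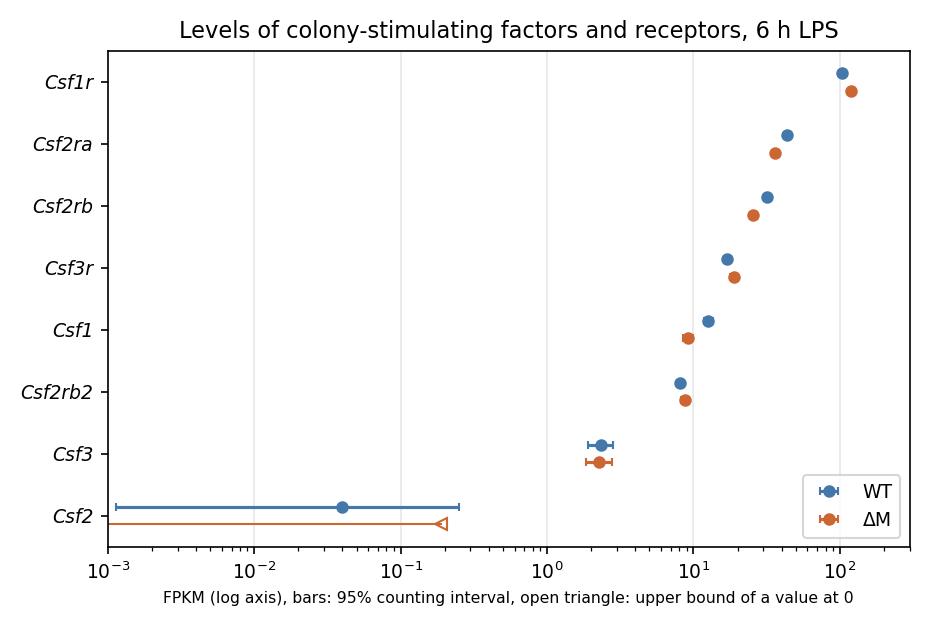
Level of each gene in the WT library (blue) and the ΔM library (orange) in FPKM on a log axis, with 95% counting intervals as bars and an open triangle at the upper bound of the value of 0. *Csf1r* is highest in both libraries (104.15 and 119.22 FPKM), and *Csf2* lies far to the left of the others.

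The receptor chains together exceeded the ligands, although *Csf1* lay over the receptor chain *Csf2rb2*. The 5 receptor chains summed to 204.59 FPKM in WT and 208.23 in ΔM, against 15 and 11.45 FPKM for the 3 ligands. *Csf1r* alone made up 50.9% of the receptor sum in WT and 57.3% in ΔM.

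*Csf1r*, the CSF-1 receptor, is at chr18:61265226-61291803 on the plus strand. It had 104.15 FPKM in WT (102 to 106) and 119.22 FPKM in ΔM (117 to 121), which ranked it 371 and 318 among 22259 protein-coding genes. The ΔM library was higher, with a log2 ratio of 0.19 (0.16 to 0.23), and the intervals did not overlap. This is 1.14 times the WT level, and 51.1% of the protein-coding genes tested had a smaller absolute log2 ratio. The receptor exceeded its ligand *Csf1* 8.25-fold in WT (7.70 to 8.85) and 13.0-fold in ΔM (12.0 to 14.2). Exons of *Hmgxb3* on the opposite strand overlap 871 nt of *Csf1r*. *Hmgxb3* was at 2.62 FPKM in WT and 3.13 in ΔM, and whether counting used the strand is not given in the sources used here.

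The chains of the GM-CSF receptor were both lower in ΔM, and by similar factors. *Csf2ra*, the ligand-specific α chain (chr19:61300305-61304321, minus strand), had 43.49 FPKM in WT (41.8 to 45.2) and 35.85 FPKM in ΔM (34.3 to 37.5), a log2 ratio of -0.27 (-0.35 to -0.19). *Csf2rb*, the common β chain (chr15:78156420-78184277, plus strand), had 31.77 FPKM in WT (30.9 to 32.6) and 25.58 FPKM in ΔM (24.8 to 26.4), a log2 ratio of -0.30 (-0.36 to -0.24). For either chain the counting intervals of the libraries did not overlap. The α chain exceeded the common β chain 1.37-fold in WT (1.31 to 1.43) and 1.40-fold in ΔM (1.33 to 1.48), and these intervals overlap.

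*Csf2rb2*, the IL-3-specific β chain, lies next to *Csf2rb* at chr15:78112947-78136052 on the minus strand. It was at 8.14 FPKM in WT (7.67 to 8.63) and 8.76 FPKM in ΔM (8.25 to 9.30), and the log2 ratio of 0.09 had an interval that holds 0 (-0.01 to 0.20). The proportion of the β chains differed between the libraries beyond counting error. *Csf2rb* exceeded *Csf2rb2* 3.90-fold in WT (3.66 to 4.16) and 2.92-fold in ΔM (2.73 to 3.12), and *Csf2rb2* made up 20.4% and 25.5% of the β-chain sum. The 2 genes share sequence, and the authors kept uniquely mapped reads. Of the exonic windows of 100 nt, the read length, 7.25% of those of *Csf2rb* and 10.2% of those of *Csf2rb2* occur unchanged in the other gene. With up to 2 mismatches 149 of the 731 windows of *Csf2rb* and 253 of the 1040 windows of *Csf2rb2* do so. Counted along the protein-coding transcripts instead, 325 different windows are shared unchanged, 6.41% of 5067 for *Csf2rb* and 7.02% of 4630 for *Csf2rb2*. The levels of this pair are therefore uncertain, and how much the sharing affects them or their proportion was not tested.

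*Csf3r*, the G-CSF receptor, is at chr4:125701794-125722219 on the plus strand. It had 17.04 FPKM in WT (16.2 to 17.9) and 18.82 FPKM in ΔM (17.9 to 19.8). The log2 ratio was 0.14 (0.04 to 0.24), slightly higher in ΔM. The table holds 1 value for the gene, and levels of its 5 annotated transcripts were not analysed here. *Csf3r* is known as a receptor of neutrophils. Of 9 neutrophil markers 7 were under 1 FPKM in both libraries, and *Ly6g*, *Elane*, *Ngp* and *S100a9* were listed at 0 in both. The markers summed to 54.75 FPKM in WT and 104.24 in ΔM, of which *S100a8* contributed 50.70 and 100.02 FPKM and *Mmp8* 3.94 and 3.74 FPKM. The part of these transcripts in the *Csf3r* values was not tested.

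The PAR-iCLIP list of TTP positions was shortened for *Csf3r* in the copy used, and 6 positions could be read. These fall in intron 6 of the annotated transcript with 17 exons. The first in the list (chr4:125709909-125709988) and another with pentamers (chr4:125710340-125710359) are shown for comparison with the 3′ UTR stretches of the ligands, with ATTTA again in capitals.
Csf3r intron, first: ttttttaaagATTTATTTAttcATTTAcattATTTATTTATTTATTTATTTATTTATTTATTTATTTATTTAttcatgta
Csf3r intron, another: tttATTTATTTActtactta

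The first intronic site holds 13 pentamers in 80 nt, and the second one shown holds 2 in 20 nt. The other positions that could be read, 6 to 15 nt long, hold no ATTTA. FPKMs were calculated on exons, so the values of *Csf3r* do not measure this intron. Of its 499 exonic windows 7 (1.40%) occur unchanged elsewhere in the genome, and 28.1% occur with up to 2 mismatches, none of them in another of the 8 genes. *Csf1*, *Csf2*, *Csf3*, *Csf1r* and *Csf2ra* had no window with such a copy.

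In both libraries the genes followed the same order, *Csf1r*, *Csf2ra*, *Csf2rb*, *Csf3r*, *Csf1*, *Csf2rb2*, *Csf3* and *Csf2*. In WT no neighbours in this order had overlapping counting intervals. In ΔM those of *Csf1* (9.17 FPKM) and *Csf2rb2* (8.76 FPKM) overlapped. At least 10 FPKM was reached by 5 genes in WT and by 4 in ΔM, *Csf1* being the gene that differed.

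None of the 7 genes that averaged 1 FPKM or more differed 2-fold between the libraries. Among all 10765 genes at or over this mean, 5.69% were at least 2-fold higher and 3.61% at least 2-fold lower in ΔM. At 1.5-fold the count for the 7 genes was again 0, against 11.2% higher and 7.51% lower among all genes. Without the added 1 FPKM it was 0 at 2-fold as well, beside 7.27% higher and 4.95% lower. *Csf1r*, *Csf2rb2* and *Csf3r* had positive log2 ratios and *Csf1*, *Csf2ra*, *Csf2rb* and *Csf3* negative ones. Their median was -0.02 and their range -0.42 to 0.19, beside a median of 0.03 over all genes tested. For 5 of the 7 the counting interval excludes 0, as it does for 52.0% of 7807 protein-coding genes of at least 500 nt, and for *Csf3* and *Csf2rb2* it holds 0. The quartiles of the protein-coding genes were -0.19 and 0.18, and *Csf3*, *Csf2rb2* and *Csf3r* lay between them.

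**Figure D2:**
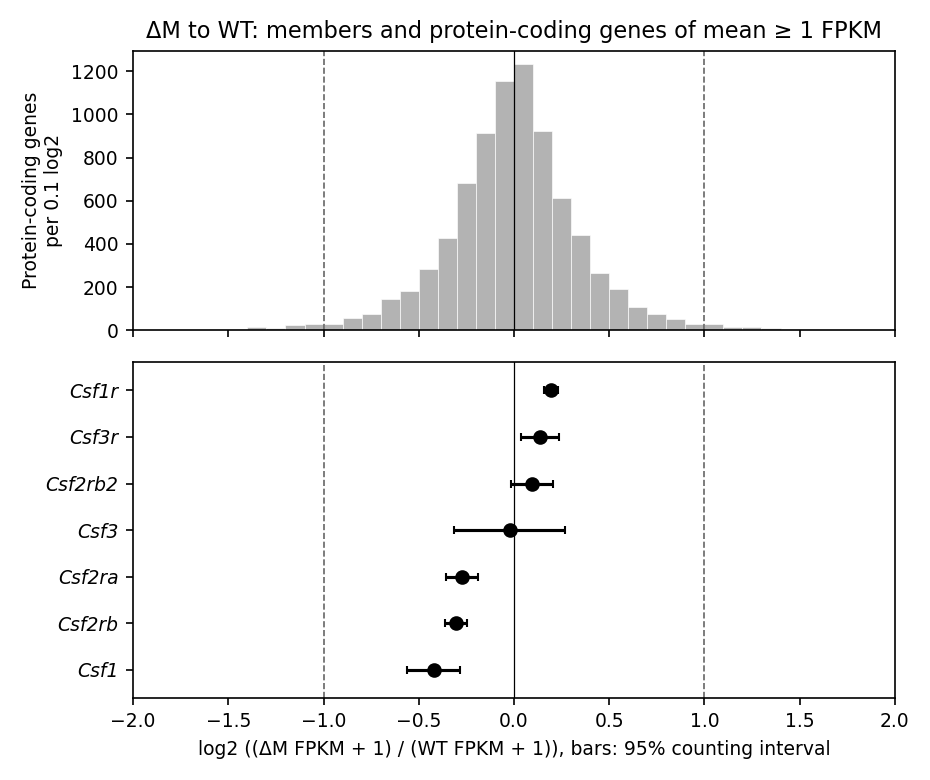
Log2 ratios of ΔM to WT after adding 1 FPKM. The upper panel counts protein-coding genes averaging 1 FPKM or more in bins of 0.1 (23 genes lie outside the axis), the lower panel gives 7 of the 8 genes with 95% counting intervals, and dashed lines mark 2-fold. *Csf1* is farthest left at -0.42 and *Csf1r* farthest right at 0.19, both well inside the dashed lines.

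The AU-rich motifs were then counted in the last 300 bases of the longest protein-coding transcript of each gene, on the transcript strand. The pentamer ATTTA occurs within the heptamer TATTTAT, which occurs within the nonamer TTATTTATT. Of 22367 genes 38.4% held the pentamer in a window of this length, 8.41% the heptamer and 1.75% the nonamer. This background was not limited to annotated 3′ UTRs, so its windows can include coding sequence. *Csf2* held 9 pentamers, 9 heptamers and 4 nonamers, all starting between 209 and 273 nt from the stop codon. *Csf1* held 3 pentamers, a number reached by 3.87% of genes, and *Csf3r* 1. The other genes held none in this window.

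Over whole 3′ UTRs the counts were higher for *Csf1*, *Csf3* and *Csf1r*. For whole 3′ UTRs, which differ in length, the share of all genes was not calculated, so whether these counts are unusual is not known. *Csf3* has 6 pentamers in its 669 nt, the first at 32 nt from the stop codon and the last at 365 nt, and those of the stretch printed above begin at 32, 42 and 49 nt. The 2111 nt of *Csf1* hold 4, counted in the longest of its 7 annotated transcripts (4176 nt, against a median of 2078 nt). Its FPKM is 1 value for the gene, and levels of its transcripts were not analysed here. Among the receptors *Csf1r* has 3 pentamers in 1669 nt and *Csf3r* 1 in 1137 nt, whereas *Csf2ra*, *Csf2rb* and *Csf2rb2* have none in 602, 1815 and 1800 nt. Of the genes with no pentamer in the annotated 3′ UTR, *Csf2ra* and *Csf2rb* were lower in ΔM and *Csf2rb2* had a log2 ratio of 0.09. *Csf1*, with 4 pentamers, was also lower, at -0.42. A relation of pentamer number to the ratios was not tested. A motif describes letters of the sequence and not binding.

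**Figure D3:**
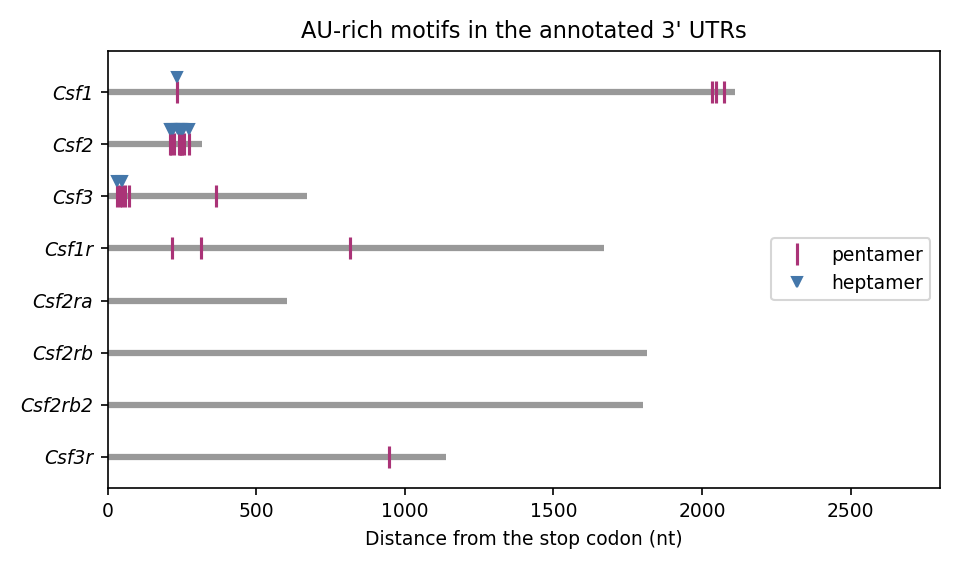
Positions of the pentamer ATTTA (ticks) and the heptamer TATTTAT (triangles) along each annotated 3′ UTR (grey line) as distance from the stop codon in nt. The motifs of *Csf2* start between 209 and 273 nt, and *Csf2ra*, *Csf2rb* and *Csf2rb2* carry no mark.

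Other genes through which these receptors act were then compared. Of the listed ligands, partners, signalling proteins, inhibitors and transcription factors, 28 reached a mean of 1 FPKM. Their median log2 ratio was 0.01. On the log2(FPKM + 1) scale none passed 2-fold, but *Inpp5d* is 2.11-fold higher in ΔM without the added 1 FPKM, and 1 gene then passes. At 1.5-fold 1 was higher and 3 were lower in ΔM, beside 11.2% and 7.51% of all genes tested.

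On the side of CSF1R, *Il34*, its alternative ligand, was at 0.06 FPKM in WT and 0.19 in ΔM. *Adam17*, a metalloprotease that sheds the CSF1R ectodomain, was at 156.25 and 97.78 FPKM, a log2 ratio of -0.67 and past 1.5-fold. The adaptor genes *Tyrobp* (467.26 and 481.09 FPKM) and *Dok1* (8.62 and 11.22 FPKM) had log2 ratios of 0.04 and 0.35. Among the partners of the β chains, *Il3ra*, the α chain of the IL-3 receptor, was at 22.81 and 24.35 FPKM, a log2 ratio of 0.09. *Il3* and *Il5* were listed at 0 in both libraries, and *Il5ra* was at 0.02 FPKM in WT and at 0 in ΔM. The GM-CSF and IL-3 receptors were thus represented by mRNAs of all their chains, whereas the α chain of the IL-5 receptor was near 0.

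Of the 13 kinases, adaptors and STATs, *Stat5a*, a transcription factor activated by GM-CSF, passed 1.5-fold, with 29.05 FPKM in WT and 16.62 in ΔM (log2 ratio -0.77). *Stat5b* was at 8.14 and 8.82 FPKM. *Jak2*, the kinase bound to the common β chain, had 50.11 and 37.36 FPKM, a log2 ratio of -0.41 that did not pass 1.5-fold. Among the inhibitors, *Inpp5d*, which encodes the phosphatase SHIP-1, was at 8.92 FPKM in WT and 18.82 in ΔM. This is 2.11-fold on the deposited values (1.97 to 2.26), and the log2 ratio after adding 1 FPKM was 0.999. *Ptpn6*, which encodes the phosphatase SHP-1, was at 678.01 and 409.63 FPKM, a log2 ratio of -0.73. *Socs3*, an inhibitor of the G-CSF receptor, was at 114.47 and 137.06 FPKM (log2 ratio 0.26). *Cish*, an inhibitor of STAT5 signalling, was at 0.41 FPKM in WT and 0.04 in ΔM, under the minimum of 1 FPKM. Of the transcription factors, *Spi1* (*Sfpi1* in the deposited table), which encodes PU.1 and acts on the promoters of CSF receptors, was at 567.08 and 574.04 FPKM, and *Cebpb* at 84.76 and 77.61 FPKM.

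**Figure D4:**
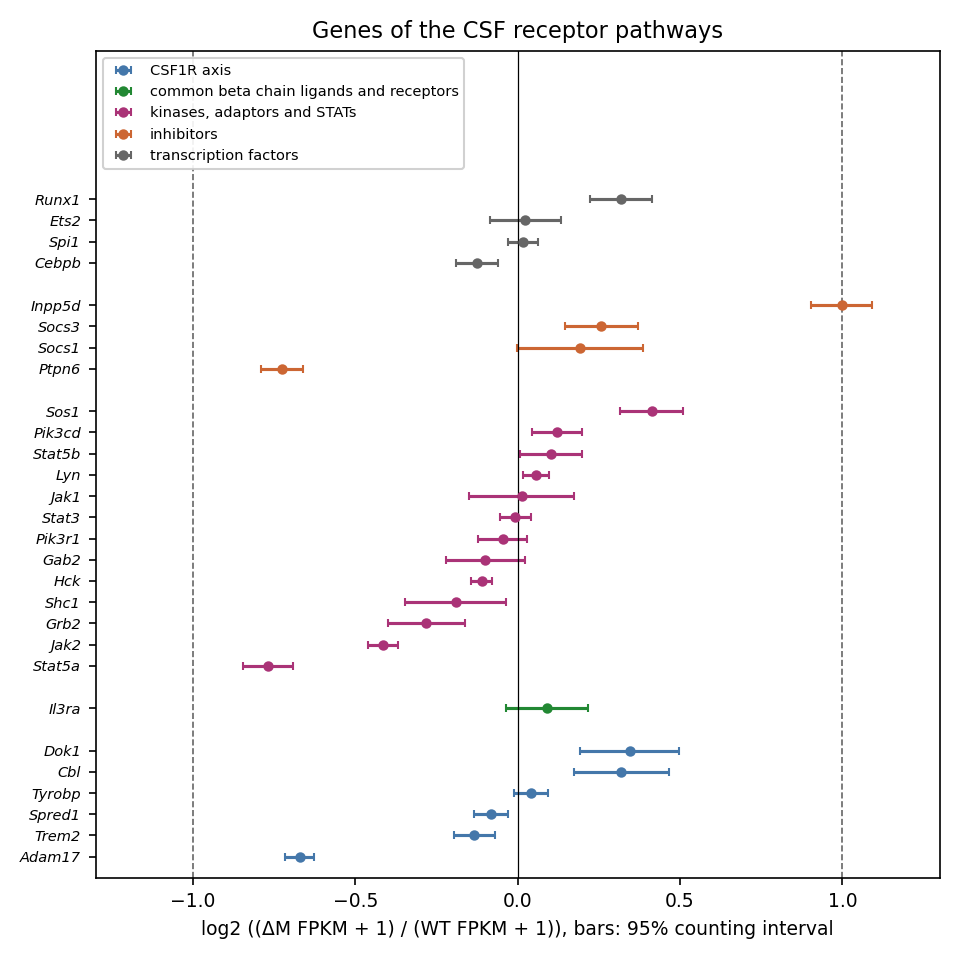
Log2 ratios of ΔM to WT after adding 1 FPKM for 28 genes of the CSF receptor pathways, colored by list, with 95% counting intervals and dashed lines at 2-fold. *Inpp5d* touches the right dashed line at 0.999, and *Stat5a*, *Ptpn6* and *Adam17* lie farthest left, at -0.77, -0.73 and -0.67.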

How the data were processed

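The deposited values are FPKMs, 1 value per Ensembl gene and library. The authors depleted rRNA, sequenced cDNA in paired ends, mapped reads to mm9 with Segemehl, kept unique hits and calculated FPKMs with Cufflinks, which the submitters' processing notes also name. No count model was applied to them. The annotation was GENCODE M1 on NCBIM37, which held 37039 of the 37451 gene identifiers.

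Depth was estimated from genes with 1 transcript, as the number of fragments that turns their low FPKMs into whole fragments (within 0.1), which held for 89.0% of 794 genes in WT and 90.5% of 738 in ΔM. Intervals (95%, Poisson) are approximate and cover counting error only. Ranges of the estimates were 35600000 to 38200000 and 32000000 to 34100000 fragments. On 3 simulated libraries the search was off by at most 1.38%. These were made with the formula that the search inverts, so they cannot test whether the deposited FPKMs follow it.

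Log2 ratios used a pseudocount of 1 FPKM, which understates changes of low genes. Genes named are the 8 members, *Zfp36*, the pathway and marker lists, and the 3 protein-coding genes nearest to *Csf1* over both libraries. Members and lists were chosen with earlier results of these data known. TTP positions came from the study's site list, shortened in the copy used for *Csf3r*, and their letters were matched to the genome. Windows were aligned with minimap2 2.31. Alternatives covered the pseudocount, filter, fold, scaling, transcript length and motif window. Python 3.11.15, pandas 2.3.3, scipy 1.17.1 and matplotlib 3.10.9 were used.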

Additional observations from a re-analysis of the deposited data

How the results depend on the processing

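No paired analysis was possible because each genotype has 1 library, which also means that leaving a library out gives no value. Of 60 comparisons with an alternative setting, 55 stayed within the counting interval, or for counts within 1.5 times. Some of these could not have moved, such as the order of the levels after each library was scaled by a constant. With a pseudocount of 0.1 FPKM the log2 ratio of *Csf2* was -0.49 rather than -0.06, which follows from a single WT fragment. At 1.5-fold, 1 pathway gene was higher and 3 were lower in ΔM, against 0 and 0 at 2-fold. Without a pseudocount, or with 0.1 FPKM, both chosen after seeing the data, 1 pathway gene (*Inpp5d*) was 2-fold higher and 0 were lower, because the added 1 FPKM pulls its 2.11-fold ratio under the threshold. None of the 7 genes passed the fold threshold under any pseudocount, filter or scaling tried. None changed the sign of its log2 ratio under any scaling, whereas a pseudocount or a filter cannot change a sign. *Csf1* ranged from -0.46 to -0.40, *Csf1r* from 0.16 to 0.21 and *Csf3* from -0.05 to -0.0012. Depth limits *Csf2* and *Csf3*, and the absence of replicates limits all ratios.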
